A study of Homo sapiens with 12 samples.

Results

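NRF2, the product of NFE2L2, is the transcription factor that drives the antioxidant and detoxifying genes of epithelial cells. Described here are 9 genes of that system under erlotinib treatment and TDP1 knockout. NFE2L2 encodes the factor and KEAP1 its inhibitor. GCLC, GCLM, SLC7A11, NQO1, HMOX1, TXNRD1 and SRXN1 are 7 widely used target genes. The 9 were chosen by symbol, with earlier results of these data known, and each matched 1 of the 62754 Ensembl identifiers in the count table.

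The data were 12 RNA-seq libraries of PC9, a human lung adenocarcinoma cell line whose growth depends on a mutant EGFR. Erlotinib inhibits the kinase of that receptor, and TDP1 is an enzyme that removes trapped topoisomerase I from DNA. There were 4 groups of 3 cultures, all derived from a subclone of PC9 and grown in serum-containing medium. TDP1 wild-type cells received no drug (untreated WT) or erlotinib at 1 µM. After 7 days of drug they are labelled drug-tolerant cells (DTC) and after 28 days drug-tolerant expanded cells (DTEC). The fourth group was the untreated TDP1 knockout line KO2 (KO). Per the series text, cultures of a condition were split from a common flask, so p-values measure the spread between such cultures only. KO is a single knockout line, and in it loss of TDP1 and other features of the line cannot be told apart. The labels name no untreated cultures matched to 7 or 28 days. In DTC and DTEC, drug, time in culture and survival of part of the cells thus cannot be told apart.

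Under basal conditions KEAP1 holds NRF2 for ubiquitination by a CUL3 ligase, and the factor is degraded. Oxidants or electrophiles modify KEAP1 cysteines, NRF2 accumulates, pairs with a small MAF protein and binds antioxidant response elements near its target genes. BACH1 occupies many of the same elements as a repressor, HMOX1 being its best known target. In lung adenocarcinoma the pathway is known for mutations of KEAP1 and NFE2L2 that leave it constantly active. Its activity is set largely through the stability of the NRF2 protein, which RNA-seq does not measure.

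The element recognised by NRF2 is shown for the genes that carry it close to a start site. RefSeq promoter windows on GRCh38.p14, from 250 bases before to 50 bases after each start, were at hand for 7 of the 9 genes, in 10 windows. The core TGACNNNGC was searched on both strands, and 3 of the 7 genes (KEAP1, GCLM and TXNRD1) held it. Of 27305 gene symbols with a window, 16.1% held the core, so its presence is common and a match describes letters, not binding. In the stretches printed here, which end before the start site, cores are in capitals and read in the direction of the gene.
GCLM: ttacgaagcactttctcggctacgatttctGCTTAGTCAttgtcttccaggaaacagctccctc
KEAP1: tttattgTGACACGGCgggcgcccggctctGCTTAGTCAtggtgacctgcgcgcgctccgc
TXNRD1: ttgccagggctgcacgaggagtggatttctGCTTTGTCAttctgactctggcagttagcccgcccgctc
The GCLM stretch is chr1:93909431-93909494 on the minus strand, and its core ends 26 bases before the start. The KEAP1 stretch is chr19:10502772-10502832, minus strand, before the more downstream of its RefSeq starts. The TXNRD1 stretch is chr12:104286900-104286968, plus strand, upstream of an internal start of the gene. Other cores of TXNRD1, TGACTTCGC and TGACGGAGC, not printed above, begin 99 and 8 bases before its start at 104215779. On its own strand the core of GCLM, TGACTAAGC, is the same as one of the cores of KEAP1, while that of the TXNRD1 stretch is TGACAAAGC. None of the cores overlapped the AP-1 letters TGACTCA on either strand. KEAP1 and GCLM thus share the 9 letters of a core, and their RNA levels followed different courses, described next.

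Library totals ran from 25572691 to 38373679 estimated counts, so that 3 counts equalled at most 0.117 CPM, the unit used here for counts scaled to library size. In KO the TDP1 transcript held 10.8 ± 0.647 CPM (SD, n = 3 here and throughout), against 26.3 ± 1.60 in untreated WT (-1.29, adjusted p 1.3e-05). That is the direction of the label, but DTC, which carries no knockout, also held less (13.96 ± 1.56 CPM, -0.92, adjusted p 3.56e-06), and gene totals do not show which part of the gene the remaining reads came from. Of the lung epithelial markers, EPCAM, CDH1 and the keratins KRT8, KRT18 and KRT19 were well expressed, while NKX2-1 and NAPSA, which define the alveolar type of lung adenocarcinoma, stayed at or under 1.62 CPM on average in every group. The summed level of these 7 markers was 4467 to 5025 CPM in DTC, against 8862 to 9330 in untreated WT, 7481 to 9813 in DTEC and 9542 to 10260 in KO. KRT18 (-1.31), KRT8 (-1.10), EPCAM (-0.81) and KRT19 (-0.33) were called lower in DTC, while CDH1 was not. NKX2-1 (0.0312 to 0.366 CPM) and NAPSA (0.127 to 1.62 CPM) were called higher, from at most 2 and 6 counts in an untreated WT library. Without DTC replicate 1, 3 of the 7 were lower and 2 higher. For 8 markers of blood, endothelial and stromal cells the sum ran from 103 to 110.4 CPM in DTEC, 64.9 to 69.3 in DTC, 60.5 to 64.2 in KO and 37.1 to 43.9 in untreated WT. PECAM1 and COL1A1 carried most of it, and CD3E had at most 3 counts in any library. In DTC these 2 moved in opposite ways, PECAM1 from 32.0 CPM in untreated WT to 8.77 and COL1A1 from 8.30 to 55.7. PECAM1 stood at 92.1 CPM in DTEC and 48.4 in KO, and COL1A1 at 12.4 and 13.8. The mitochondrially encoded share was 5.02% ± 0.519 in DTC, against 2.04% ± 0.296 in DTEC, 2.72% ± 0.112 in KO and 2.60% ± 0.147 in untreated WT. The part of these differences in the results on DTC was not tested. DTC replicate 1 stood apart from the other DTC libraries, and calls or counts that its omission changes are also given without it.

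Measured per kilobase of exon, TXNRD1 and NQO1 were the most abundant of the 9 transcripts in untreated WT, at 248 ± 5.86 and 247 ± 15.3 CPM per kb. SRXN1 followed at 131 ± 5.25 and GCLM at 113 ± 7.20 CPM per kb. The regulators were lower, with KEAP1 at 49.9 ± 5.17 and NFE2L2 at 29.9 ± 1.97 CPM per kb. SLC7A11, GCLC and HMOX1 had 32.4 ± 0.872, 21.2 ± 1.46 and 17.0 ± 1.79 CPM per kb. HMOX1 was thus the least abundant of the 9 in untreated cells, and in DTEC NQO1 moved to the top at 401 ± 37.6 CPM per kb, above TXNRD1 at 262 ± 15.7.

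**Figure D1:**
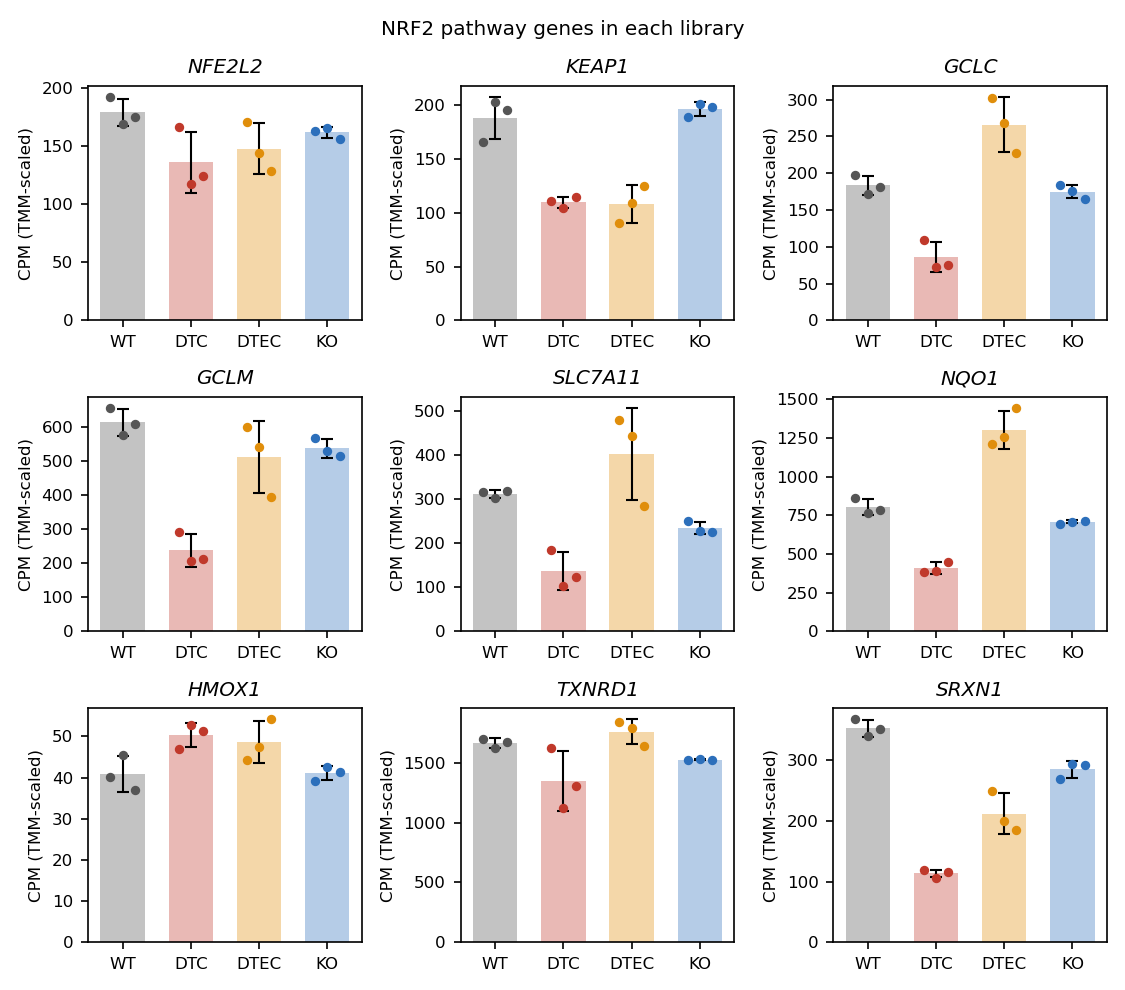
TMM-scaled CPM of the 9 genes in untreated WT, DTC, DTEC and KO. Points are the 3 libraries of a group, bars their mean and error bars the SD; GCLC, GCLM, SLC7A11, NQO1 and SRXN1 were lowest in the 3 DTC libraries, and GCLC and NQO1 were highest in the 3 DTEC libraries.

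After 7 days of erlotinib 8 of the 9 genes were lower than in untreated WT and HMOX1 was higher. All 9 passed the test (edgeR quasi-likelihood, adjusted p under 0.05), where 67.3% of all tested genes were called, 34.0% higher and 33.3% lower. The DTC and untreated libraries did not overlap for 8 of the 9, HMOX1 above and 7 genes below, TXNRD1 being the exception. Such separation was seen in 68.9% of tested genes, 35.1% above and 33.8% below. At 28 days the picture had split. GCLC and NQO1 stood above untreated WT, SRXN1 and KEAP1 remained below it, and the other 5 genes were not called. These 4 called genes compare with 52.3% of tested genes, 26.0% higher and 26.3% lower. They were also the 4 whose DTEC and untreated libraries did not overlap, against 62.4% of tested genes, 31.1% above and 31.3% below. Both comparisons use the same untreated libraries. The knockout called none of the 9. The median log2 fold change of the 9 was -0.975 in DTC, 0.0796 in DTEC and -0.146 in KO, beside 0.0551, 0.0179 and -0.0121 over all 17115 tested genes. In bulk RNA, fewer cells that express a gene and less RNA per cell cannot be told apart.

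NFE2L2 (ENSG00000116044, chromosome 2, 177227595 to 177392697, minus strand, GRCh38) encodes NRF2 itself. It was at 192, 169 and 175 CPM in the untreated WT libraries 1 to 3, at 166, 118 and 124 in DTC, at 171, 144 and 128 in DTEC and at 163, 165 and 156 in KO. All 3 DTC libraries lay below all 3 of untreated WT, but DTC replicate 1 nearly reached them, while DTEC replicate 1 lay within the WT range. The log2 fold change in DTC was -0.40 (SE 0.134, adjusted p 0.0172), or 76.0% of the untreated level. With total counts alone as the scaling it was -0.04 (adjusted p 0.797), and with the upper quartile -0.11 (0.45). The call was also lost without untreated WT replicate 1 (adjusted p 0.0997), DTC replicate 2 (0.142) or DTC replicate 3 (0.123), and over all alternatives adjusted p ran from 0.000281 to 0.797. In DTEC the gene was at 82.7% of untreated WT and was not called (-0.27, 95% interval -0.537 to -0.0124, adjusted p 0.0997). It was called there with replicate number as a block (0.0347) or without DTEC replicate 1 (-0.37, 0.0473), in a range of 0.0347 to 0.524.

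KEAP1 (ENSG00000079999, chromosome 19, 10486120 to 10503741, minus strand, GRCh38), the inhibitor and cysteine sensor, was at 166, 202 and 195 CPM in untreated WT. It fell to 111, 104 and 114 CPM in DTC and stood at 90.3, 109 and 125 CPM in DTEC. KO held 189, 201 and 198 CPM. Both erlotinib groups lay entirely below untreated WT. The log2 fold change was -0.77 (SE 0.118, adjusted p 4.46e-05) in DTC and -0.80 (SE 0.118, adjusted p 6.69e-05) in DTEC, or 58.5% and 57.6% of the untreated level. DTEC and DTC differed by -0.02 (95% interval -0.252 to 0.210, adjusted p 0.893). With total counts alone the fall in DTC was -0.42 (adjusted p 0.00641), the highest adjusted p among its alternatives. KEAP1 was the only one of the 8 genes lower in DTC whose DTEC mean was below its DTC mean; for it the difference was within the spread of the libraries, and its sign turned without DTEC replicate 1 (0.083).

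GCLC (ENSG00000001084, chromosome 6, 53497341 to 53616970, minus strand, GRCh38) encodes the catalytic subunit of glutamate-cysteine ligase, the rate-limiting enzyme of glutathione synthesis. It measured 197, 172 and 182 CPM in untreated WT, 109, 72.7 and 76.0 CPM in DTC, 302, 269 and 227 CPM in DTEC and 184, 175 and 166 CPM in KO. The DTC, untreated WT and DTEC libraries occupied 3 separate ranges, with DTC lowest and DTEC highest. GCLC fell by 1.10 on the log2 scale in DTC (SE 0.148, adjusted p 1.36e-05) and rose by 0.54 in DTEC (SE 0.146, adjusted p 0.0068), so that DTEC exceeded DTC 3.10-fold (adjusted p 6.9e-07). All 3 calls held in every alternative tried.

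GCLM (ENSG00000023909, chromosome 1, 93885205 to 93909456, minus strand, GRCh38) encodes the modifier subunit, which raises the efficiency of the ligase. Its values were 655, 578 and 608 CPM in untreated WT, 293, 206 and 213 CPM in DTC, 600.3, 539.8 and 395 CPM in DTEC and 568, 528 and 514 CPM in KO. DTC lay far below every other group, and DTEC overlapped untreated WT through replicate 1. The log2 fold change was -1.37 in DTC (SE 0.158, adjusted p 2.89e-06) and 1.11 from DTC to DTEC (SE 0.157, adjusted p 4.12e-05). Against untreated WT, DTEC was not called (-0.26, 95% interval -0.567 to 0.0423, adjusted p 0.172), under any alternative.

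The ratio of the subunit transcripts does not depend on how libraries are scaled. Per kilobase of exon, GCLM exceeded GCLC by 5.34 ± 0.0270 in untreated WT (range 5.31 to 5.36), 4.43 ± 0.127 in DTC (4.28 to 4.52), 3.05 ± 0.242 in DTEC (2.77 to 3.20) and 4.89 ± 0.0792 in KO (4.80 to 4.96). The 4 groups did not overlap in this ratio. It was picked out after the values had been seen and is given without a test. Its absolute size, like every level per kilobase here, depends on the exon lengths taken from GENCODE, but its relative differences between groups do not. GCLC thus stood higher relative to GCLM in DTEC than in the other groups, and the plot of the GCLM to GCLC ratio shows the separation by library.

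**Figure D2:**
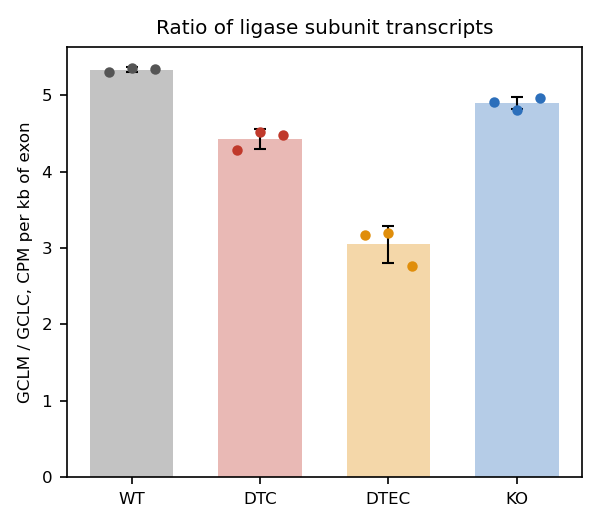
Ratio of GCLM to GCLC transcripts per kilobase of exon in untreated WT, DTC, DTEC and KO; points are libraries, bars means and error bars the SD of 3 libraries. The ratio was highest in untreated WT (5.34) and lowest in DTEC (3.05), with no overlap between groups.

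SLC7A11 (ENSG00000151012, chromosome 4, 138164097 to 138242349, minus strand, GRCh38), or xCT, imports the cystine from which glutathione is made, and it is a target of ATF4 as well as of NRF2. The libraries held 317, 303 and 318 CPM in untreated WT, 185, 103 and 124 CPM in DTC, 481, 444 and 285 CPM in DTEC and 252, 228 and 225 CPM in KO. Spread was small in the untreated groups and wide in both erlotinib groups, where DTC replicate 1 and DTEC replicates 1 and 2 were high. The gene fell by 1.19 on the log2 scale in DTC (SE 0.206, adjusted p 0.000174), and by 1.42 without DTC replicate 1. From DTC to DTEC it rose by 1.55 (SE 0.207, adjusted p 3.08e-05), and without DTC replicate 1 by 1.81. The DTEC value against untreated WT was 0.37 (95% interval -0.0302 to 0.764, adjusted p 0.145). It was called without DTEC replicate 3 (0.56, adjusted p 0.0247), with total counts alone (0.54, 0.0406) and with no count filter (0.0227), in a range of 0.0227 to 0.406. Only 2 of its 12 deposited values were whole numbers, so part of the reads may belong elsewhere. Of its 9645 exonic bases 865 are shared with SLC7A11-AS1, on the other strand. Whether the counting of these stranded libraries used the strand is not given in the sources used here.

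NQO1 (ENSG00000181019, chromosome 16, 69706996 to 69726951, minus strand, GRCh38) encodes the quinone reductase often used as the readout of NRF2 activity. It measured 860, 764 and 788 CPM in untreated WT, 383, 393 and 451 CPM in DTC, 1214, 1255 and 1443 CPM in DTEC and 698, 710.0 and 717 CPM in KO. Every DTC library was below every untreated library and every DTEC library above. NQO1 fell by 0.97 on the log2 scale in DTC (SE 0.102, adjusted p 1.09e-06) and rose by 0.70 in DTEC (SE 0.102, adjusted p 5.64e-05). Its 3.19-fold rise from DTC to DTEC (1.67, SE 0.104, adjusted p 1.61e-08) was close to that of GCLC. Without DTC replicate 1 the rise was 1.61 for NQO1, 1.82 for GCLC and 1.81 for SLC7A11. With total counts alone the fall in DTC was -0.62 (adjusted p 8.59e-05), and each of the 3 calls held under all alternatives.

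HMOX1 (ENSG00000100292, chromosome 22, 35380361 to 35394214, plus strand, GRCh38), which degrades heme, went against the other 8 in DTC. It was at 40.1, 45.5 and 37.1 CPM in untreated WT, 47.0, 52.7 and 51.3 CPM in DTC, 44.3, 47.4 and 54.2 CPM in DTEC and 39.2, 42.7 and 41.4 CPM in KO. The DTC libraries lay just above the untreated ones, and DTEC overlapped both. The rise in DTC was 0.30 (SE 0.107, adjusted p 0.0218), a 1.23-fold change, and 0.66 with total counts alone. It was not called without untreated WT replicate 3 (0.0961) or with no count filter (0.0757), in a range of 8.67e-05 to 0.0961. In DTEC the value was 0.25 (95% interval 0.0419 to 0.460, adjusted p 0.0619). There it was called with total counts alone (0.42, adjusted p 0.00453), the upper quartile (0.0116), DESeq2 (0.0421) or the replicate block (0.0477), and without untreated WT replicate 2 (0.0322) or DTEC replicate 1 (0.0327), in a range of 0.00453 to 0.254.

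TXNRD1 and SRXN1 serve the repair of oxidised thiols. TXNRD1 (ENSG00000198431, chromosome 12, 104215779 to 104350305, plus strand, GRCh38), the cytosolic thioredoxin reductase, keeps thioredoxin in its reduced form. It was at 1695, 1619 and 1676 CPM in untreated WT, 1620, 1123 and 1301 CPM in DTC, 1842, 1791 and 1640 CPM in DTEC and 1519, 1530 and 1522 CPM in KO. DTC replicate 1 reached the untreated range and the other DTC libraries did not. Its DTC value was -0.30 (SE 0.119, adjusted p 0.0348), and 0.05 with total counts alone. The call was lost in 10 of 14 alternatives, among them the omission of any untreated WT library (adjusted p 0.0907 to 0.139) or of DTC replicate 2 (0.325) or 3 (0.183), and held without DTC replicate 1 (-0.42, 0.000455), in a range of 0.000455 to 0.894. In DTEC it stood at 106% of untreated WT (0.08, 95% interval -0.152 to 0.312, adjusted p 0.595).

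SRXN1 (ENSG00000271303, chromosome 20, 646615 to 653370, minus strand, GRCh38) encodes sulfiredoxin, which restores overoxidised peroxiredoxins. Its libraries held 367, 339 and 351 CPM in untreated WT, 119, 107 and 115 CPM in DTC, 249.8, 200.1 and 185 CPM in DTEC and 268, 294 and 292 CPM in KO. All 4 groups were separate, in the order untreated WT, KO, DTEC and DTC. SRXN1 had the lowest log2 fold change of the 9 in DTC, at 32.2% of the untreated level (-1.64, SE 0.113, adjusted p 1.65e-08). It had risen again by DTEC (0.90, SE 0.111, adjusted p 1.18e-05), but only to 60.1% of untreated WT (-0.74, SE 0.111, adjusted p 7.47e-05). These 3 calls held under all alternatives. In GENCODE 29, 2292 of its 2698 exonic bases are shared with an overlapping gene on the same strand, AL121758.1, while 11 of its 12 deposited values were whole.

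**Figure D3:**
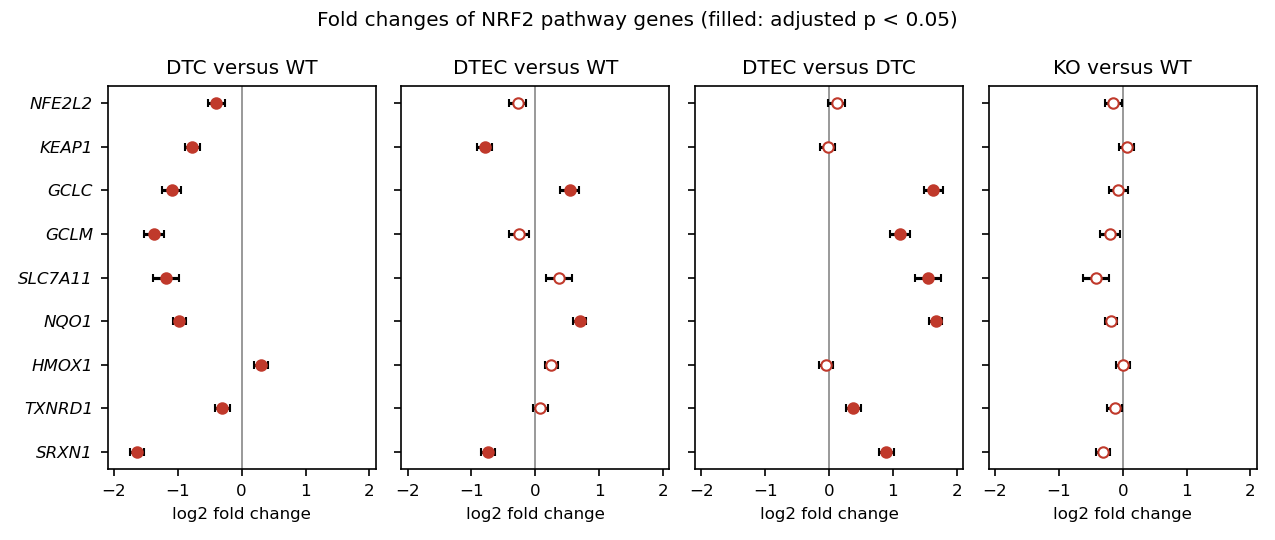
Log2 fold changes of the 9 genes in the 4 comparisons; points are estimates, bars standard errors, and filled points passed an adjusted p of 0.05. In DTC versus WT 8 genes lie left of 0 and HMOX1 right of it, in DTEC versus DTC 6 filled points lie to the right, and in KO versus WT no point is filled.

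The direct comparison of DTEC with DTC asked what changed between 7 and 28 days in drug. GCLC, GCLM, SLC7A11, NQO1, TXNRD1 and SRXN1 were called, all higher in DTEC, where 55.4% of tested genes were called, 28.8% higher and 26.6% lower. In each of these 6 genes the 3 DTEC libraries lay above the 3 DTC libraries, and none of the 9 was separated the other way. Of tested genes 56.7% did not overlap, 29.0% above and 27.7% below. The genes not called were NFE2L2 (0.12, 95% interval -0.141 to 0.384, adjusted p 0.465), KEAP1 and HMOX1 (-0.05, 95% interval -0.258 to 0.159, adjusted p 0.712). The libraries of each of these 3 overlapped between the groups, so NFE2L2 did not show the separation seen in 6 of its targets. NFE2L2 was called without DTC replicate 1 (0.27, adjusted p 0.0316), and its sign turned in 4 alternatives (both other scalings and the omission of DTC replicate 2 or DTEC replicate 1), in a range of 0.0316 to 0.96. TXNRD1 (0.38, adjusted p 0.0135) lost its call with total counts alone (0.172), the upper quartile (0.119) or the compared libraries alone (0.124), and without DTC replicate 2 (0.103), DTC replicate 3 (0.0775), DTEC replicate 1 (0.0602) or DTEC replicate 2 (0.0606), in a range of 9.2e-05 to 0.172.

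The scaling of DTC libraries matters to these values. When libraries were scaled by total counts alone, the median over all genes shifted by 0.355 in DTC and by 0.168 in DTEC on the log2 scale. Under that scaling GCLC, GCLM, SLC7A11, NQO1, SRXN1 and KEAP1 were still called lower in DTC, HMOX1 was called higher, and NFE2L2 and TXNRD1 were not called. The scaling moves all genes of a library alike, so relative to the median of all genes the values of the 9 stayed near those first given. With the compared libraries alone 8 of the 9 were called in DTC, beside 64.9% of all genes tested in that fit. Without DTC replicate 1, the library that stood apart, all 9 were called in DTC, beside 70.0% of all tested genes. GCLC was then at -1.27, GCLM at -1.51, NQO1 at -0.89, SRXN1 at -1.63 and HMOX1 at 0.38. Without DTEC replicate 3, 5 of the 9 were called in DTEC, SLC7A11 being the addition, beside 48.4% of all tested genes.

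The comparison of KO with untreated WT asked what the knockout changed without drug. None of the 9 genes was called, where 4.31% of tested genes were, 2.76% higher and 1.55% lower. At an unadjusted p under 0.05 edgeR counted 1 of the 9, SRXN1, and DESeq2 and limma voom called 0. NFE2L2, GCLM, SLC7A11, NQO1, TXNRD1 and SRXN1 had all 3 KO libraries below all 3 untreated WT libraries, and none lay above. Of tested genes 35.7% did not overlap, 15.8% above and 19.9% below. The largest values were those of SLC7A11 (-0.41, 95% interval -0.809 to -0.0142, adjusted p 0.332) and SRXN1 (-0.31, 95% interval -0.524 to -0.0921, adjusted p 0.154). KO held 75.2% of the untreated level of SLC7A11, 80.8% of that of SRXN1 and 88.1% of that of NQO1. In a fit of just the 6 libraries compared, SLC7A11 (-0.39, adjusted p 0.000584) and SRXN1 (-0.28, adjusted p 0.00354) were called, where 17.5% of the 15183 genes tested in that fit were. That fit had a smaller common biological coefficient of variation, 8.24% in place of 14.6%. Over their alternatives adjusted p ran from 0.000584 to 0.625 for SLC7A11 and from 0.00354 to 0.462 for SRXN1.

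How far the 9 genes moved together was described by Pearson's r of log2 CPM over the 12 libraries, which share 4 group means, so no test applies. GCLC and SLC7A11 had r 0.965, SLC7A11 and TXNRD1 0.940, GCLM and SRXN1 0.939 and GCLC and NQO1 0.919. KEAP1 had r 0.0206 with NQO1 and 0.137 with GCLC. HMOX1 was negative with each of the other 8, from -0.114 with NQO1 to -0.832 with NFE2L2. NFE2L2 itself had r 0.799 with GCLM, 0.776 with SRXN1 and 0.219 with NQO1. Among 9791 other genes with a mean of at least 10 CPM, the most alike in pattern were KPNA1 (r 0.984), CDV3 and PANK2 for NFE2L2, TMEM201 (0.991), NCS1 and AKT1 for KEAP1, and TAB2 (0.994), TMEM43 and RTN4 for GCLC. For GCLM they were UBE3A (0.996) and PTPN12, for SLC7A11 USP28 (0.989), ARHGEF2 and PRKAA2, and for NQO1 PCCA (0.996), EIF2D and EIF3L. SRXN1 was closest to C1orf109 (0.994), NOC3L and DDX18, TXNRD1 to TPP2 (0.976), STT3B and ARAP2, and HMOX1 to C11orf68 (0.942), TOM1 and RECQL5.

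Other NRF2 targets, a list of 20 detoxifying, iron-storing and transport genes, were mostly called lower in DTC. Of the 20, 13 were called lower, 1 higher and 6 not called, with a median of -0.506. All tested genes were called in 67.3% of cases in DTC, 34.0% higher and 33.3% lower. For this list and those that follow, the shares of all tested genes in DTEC were 26.0% higher and 26.3% lower. They were 28.8% and 26.6% in DTEC against DTC, and 2.76% and 1.55% in KO. AKR1B10, an aldo-keto reductase, fell from 1405 to 125 CPM (-3.49, adjusted p 9.94e-12), and the conjugate exporter ABCC2 fell as well (-2.52, adjusted p 7.01e-10). The gene called higher was BLVRB, biliverdin reductase B (0.50), named after its value was seen. Scaled by total counts, 9 were lower and 4 higher, with a median of -0.151, and without DTC replicate 1 13 were lower and 2 higher. In DTEC 8 were higher and 6 lower than in untreated WT, among them ABCC3 (1.79, adjusted p 5.5e-09) and OSGIN1 (-1.23, adjusted p 2.69e-06). Between DTC and DTEC 13 rose and 3 fell (12 and 4 without DTC replicate 1), AKR1B10 by 2.94 and ABCC2 by 2.46 among the rising. In KO, AKR1C1 was lower (-1.18, adjusted p 4.67e-05, 117 to 51.9 CPM) and ABCC3 higher (0.46, adjusted p 0.011). The ABCC3 call was lost without untreated WT replicate 1 (0.0714) or 3 (0.0586) or KO replicate 2 (0.0526) or 3 (0.0768), in a range of 9.8e-06 to 0.0768. None of the 12 deposited values of AKR1C1 was whole, and the family shares near-identical sequence, so its split among members is uncertain. For AKR1B10 1 of 12 was whole, so its reads too may have been divided among features.

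The genes that regulate NRF2 gave mixed calls, 6 of 12 in DTC, where 67.3% of all tested genes were called. In DTC 3 of 12 rose and 3 fell, with CUL3, the scaffold of the KEAP1 ligase, at -0.86 (adjusted p 0.000111) and the related factor NFE2L3 at -1.56 (adjusted p 2.53e-07). Scaled by total counts, 5 rose and 2 fell, and without DTC replicate 1 4 rose and 6 fell. In DTEC the repressor BACH1 rose 2.26-fold, from 40.0 to 90.5 CPM (1.18, adjusted p 3.54e-05), and the small MAF gene MAFK fell to 26.1 from 49.6 CPM (-0.93, adjusted p 0.000701). DTEC against DTC gave 6 higher and 4 lower, with NFE2L3 at 1.51 and MAFK at -1.69. The counts were 3 and 4 scaled by total counts, and 6 and 3 without DTC replicate 1. KO called 0 of the 12, beside 4.31% of all tested genes. At an unadjusted p under 0.05 edgeR counted 0 of the 12, and DESeq2 and limma voom called 0.

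Of 19 other glutathione enzymes 9 rose and 6 fell in DTC, and 12 rose and 6 fell without DTC replicate 1. The shares of all tested genes were 34.0% higher and 33.3% lower in DTC, and 70.0% called either way without that replicate. Among genes averaging 10 CPM or more in this comparison the largest rises were those of GPX8, a peroxidase of the endoplasmic reticulum (2.73, adjusted p 8.33e-10), and the transferase GSTM3 (2.28, adjusted p 1.22e-07). The less abundant GSTA4 (2.65) and CHAC1 (2.53), named after their values were seen, lay between them. These rises stand beside the falls of GCLC and GCLM. GPX8 remained higher in DTEC (1.76, adjusted p 1.52e-07), as did GSTK1 (1.46, adjusted p 2.18e-07), and in all 8 rose and 3 fell. Relative to DTC 5 rose and 8 fell (5 and 10 without DTC replicate 1), GPX3 (-2.39) and GSTM3 (-2.06) among the falling. In KO 1 was called, GPX2 (-0.58, adjusted p 0.0222), and its call was lost without any 1 of the 6 libraries compared (adjusted p 0.0543 to 0.158). GSTM3 had 2 whole values of 12.

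The supply of cysteine and glutamate was measured over 8 tested genes, of which 6 were called in DTC, beside 67.3% of all tested genes. CTH, which makes cysteine from cystathionine, rose in DTC (2.03, adjusted p 7e-06) and SLC1A4, a neutral amino acid carrier, rose as well (2.06, adjusted p 5.58e-07), among 3 higher and 3 lower. The lower genes, named after their values were seen, were the carriers SLC1A5 (-0.95) and SLC38A1 (-0.92) and SLC3A2 (-0.36), which encodes the heavy chain that pairs with SLC7A11. Scaled by total counts 4 were higher and 2 lower, and without DTC replicate 1 3 were higher and 4 lower. In DTEC 5 were higher and 2 lower, and CBS and CTH, the enzymes of transsulfuration, had risen 10.9-fold and 9.98-fold (adjusted p 2.1e-10 and 2.81e-07). From DTC to DTEC 5 rose and 1 fell, CBS by 1.82 and SLC1A5 by 1.48. In KO, CBS alone was called (0.64, adjusted p 0.00932). It is named after its value was seen. Of 8 genes of the ATF4 list, to which SLC7A11 also answers, 5 were higher and 2 lower in DTC, beside 67.3% of all tested genes called. In DTEC 8 were higher, beside 52.3% of all tested genes called. In DTC 6 were higher and 0 lower when scaled by total counts, and 5 higher and 1 lower without DTC replicate 1. ASNS, asparagine synthetase, rose by 1.78 in DTC and 3.45 in DTEC (adjusted p 2.94e-08 and 6.56e-10), ATF3 by 4.59 in DTC (adjusted p 2.3e-09) and DDIT4 by 1.94 in DTEC (adjusted p 7.78e-08). Between DTC and DTEC 5 rose and 2 fell, TRIB3 by 1.90 among the rising and ATF3 at -2.53. ASNS was lower in KO (-0.57, adjusted p 0.0241), a call lost without any 1 of those 6 libraries (0.0503 to 0.106), and its 12 deposited values all had decimals.

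NADPH is the reductant that TXNRD1 and NQO1 consume. Of 10 genes that supply it 6 fell and 2 rose in DTC, beside 33.3% and 34.0% of all tested genes. Transketolase TKT was at -1.59 (adjusted p 1.28e-08) and the mitochondrial transhydrogenase NNT at 1.54 (adjusted p 2.43e-07). Scaled by total counts, 3 fell and 4 rose, and without DTC replicate 1 6 fell and 4 rose. In DTEC 6 were higher and 1 lower, IDH1, cytosolic isocitrate dehydrogenase, by 2.00 (adjusted p 4.08e-09) and NNT by 1.46 (adjusted p 1.15e-06). From DTC to DTEC 7 rose and 0 fell, TKT by 1.91 and IDH1 by 1.72. The deposited values of NNT all had decimals. In KO, IDH1 was called (0.38, adjusted p 0.0442), not without any 1 of the compared libraries (0.0601 to 0.144) or with no count filter (0.07).

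The thioredoxin and peroxiredoxin list holds thioredoxins and peroxiredoxins, among them substrates of TXNRD1 and SRXN1. It also holds TXNRD2, TXNRD3, TXNIP and methionine sulfoxide reductases. Beside 33.3% of all tested genes lower and 34.0% higher in DTC, 5 of the 13 genes of this list were lower and 0 higher. These were TXNRD3 (-0.74, adjusted p 0.000315) and PRDX2 (-0.67, adjusted p 0.000476), and, named after their values were seen, PRDX1, PRDX6 and MSRA. Scaled by total counts, 3 were lower and 3 higher, and without DTC replicate 1 5 were lower and 2 higher, with a median of -0.0196 in place of -0.216. In DTEC 5 were lower and 2 higher, with TXNIP, the thioredoxin inhibitor, at 1.46 (adjusted p 3.19e-07) and PRDX4 at -0.92 (adjusted p 0.00122). Relative to DTC 4 rose and 2 fell, TXNIP by 1.22 and MSRB1 by 0.92 among the rising. Scaled by total counts 3 rose and 3 fell, and without DTC replicate 1 5 rose and 2 fell. In KO, MSRB1 was called higher (0.51, adjusted p 0.0327), and the call was lost without any 1 of the compared libraries (0.0533 to 0.132). Of 8 tested superoxide and peroxide enzymes 2 rose and 3 fell in DTC (3 and 3 without DTC replicate 1), and 1 rose and 2 fell in DTEC. KO called 0 of them (2 at an unadjusted p under 0.05 in edgeR, 1 by DESeq2 and 0 by limma voom). The shares of all tested genes called were 67.3% in DTC, 52.3% in DTEC and 4.31% in KO. HMOX2, the constitutive heme oxygenase, was lower in DTC (-0.67, adjusted p 8.95e-05) and DTEC (-1.04, adjusted p 3.22e-06). HMOX1, the inducible form, was not lower in either. Catalase, CAT, was lower in DTC (-0.58, adjusted p 0.000107; -0.22 and 0.0556 with total counts alone) and higher in DTEC (1.24, adjusted p 1.93e-07).

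**Figure D4:**
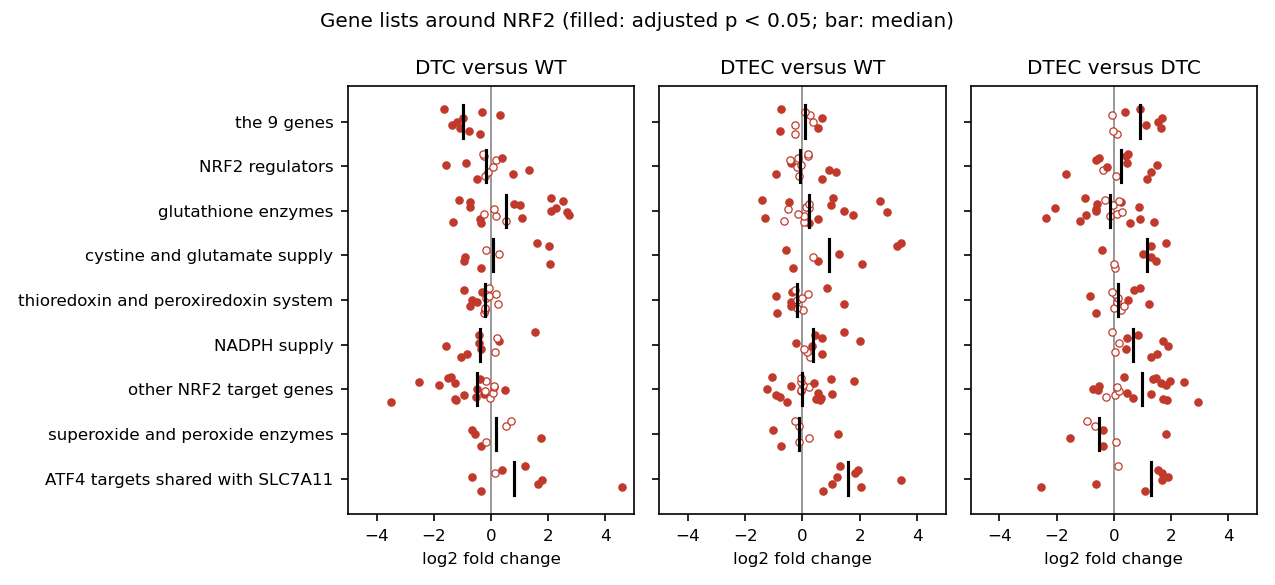
Log2 fold changes of the 9 genes and of 8 gene lists in DTC versus WT, DTEC versus WT and DTEC versus DTC; each point is a gene, filled points passed an adjusted p of 0.05, and the black bar is the list median. NOX1, at the counting floor in a compared group, is not drawn but counts in its median; the median of the 9 genes lies at -0.975 in the left panel and 0.899 in the right.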

How the data were processed

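The labels describe stranded polyadenylated RNA libraries of 12 PC9 cultures in 1 batch, read as 101 bp pairs. The authors deposited expected counts, estimated reads per gene without scaling, and 71.4% of values of genes with a mean of at least 10 were whole. The submitters' processing notes name GRCh38, RSEM 1.3.1, Bowtie2 2.5.2 and DESeq2 1.40.2, without saying what each did, and the annotation release is not given in the sources used here. Symbols were found for 62700 identifiers, and positions and merged exon lengths come from GENCODE 29.

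Values were rounded and fitted in R 4.3.3 with edgeR 4.0.16: filterByExpr (17115 genes), TMM, 1 mean per group over all 12 libraries, robust quasi-likelihood F tests, and Benjamini-Hochberg adjustment over all genes, called under 0.05. SE is the absolute log2 fold change divided by the root of F, and intervals are 1.96 SE either side. The fit was tested on simulated data. Alternatives were DESeq2 1.42.0, limma 3.58.1 (voom), other scalings, no filter, the compared libraries alone, a replicate block and omission of each library. Named list genes were the 2 called genes with the largest change per list and comparison, at 10 CPM or more over the compared libraries, and the 3 genes most like each of the 9, of which 1 for GCLM is not reported here. The 9 genes and the lists were chosen with earlier results of these data known. Libraries of a group differed by more than sampling noise. No source used here ties a replicate number to a shared culture or day, and 4 of 18 same-number pairs correlated over 0.1, where pairing was taken to need all of them.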

Additional observations from a re-analysis of the deposited data

Results flagged for a closer look

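The change from the same untreated WT libraries differed between 28 and 7 days in drug for 6 of the 9 genes, by the direct test of DTEC against DTC. The difference on the log2 scale was 1.67 for NQO1, 1.63 for GCLC, 1.55 for SLC7A11, 1.11 for GCLM, 0.90 for SRXN1 and 0.38 for TXNRD1. That test called 55.4% of all tested genes, 28.8% higher and 26.6% lower. The TXNRD1 call was kept in 7 of 14 alternatives, with adjusted p up to 0.172. For GCLC and NQO1 the changes from untreated WT had opposite signs and both were called, whereas SRXN1 was lower at both times.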

How the results depend on the processing

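Of 504 values of the 9 genes under alternatives, 455 kept their direction and side of the threshold, 23 lost a call, 14 gained one and 12 changed sign. Without single libraries, 7 to 9 of the 9 genes were called in DTC, 4 to 6 in DTEC, 5 to 7 in DTEC against DTC and 0 in KO. Of all tested genes 61.3% to 70.0%, 43.7% to 48.4%, 47.5% to 60.3% and 1.81% to 2.40% were called, respectively. With the compared libraries alone KO called 2 of the 9, beside 17.5% of the genes tested in that fit. The cause was not tested. Signs turned with total counts alone for TXNRD1 in DTC (0.052), NFE2L2 in DTEC against DTC (-0.066) and GCLC in KO (0.0023). NFE2L2 in DTEC against DTC also turned with the upper quartile (-0.050), without DTC replicate 2 (-0.016) and without DTEC replicate 1 (-0.0099), where KEAP1 (0.083) and HMOX1 (0.0055) turned too. Without single libraries these 3 reached at most 0.27 and at least -0.18 and -0.17, respectively. In KO, KEAP1 (-0.0048) and GCLC (0.0024) turned without untreated WT replicate 1, and HMOX1 without untreated WT replicate 3 (-0.037) or KO replicate 2 (-0.015), while without untreated WT replicate 2 the 3 genes were at 0.14, -0.089 and 0.11. TDP1 in DTEC turned without untreated WT replicate 2 (-0.0051) or DTEC replicate 1 (-0.010). Among omissions of single libraries it was highest without untreated WT replicate 1 (0.085), and over all alternatives it reached 0.186. Replicate numbers were not treated as pairs, since 4 of 18 same-number pairs correlated over 0.1, although 8 of 12 libraries correlated best with their own number. With the replicate block 9, 6, 6 and 0 of the 9 genes were called in DTC, DTEC, DTEC against DTC and KO. The shares of all tested genes called with it were 68.8%, 54.1%, 56.9% and 5.18%. All calls over all genes in KO ran from 321 without untreated WT replicate 1 to 2656 with the compared libraries alone, against 738, with 1113 by DESeq2 and 1147 with no filter. Total counts alone put higher calls at 68.4% in DTC (50.5% by TMM), 63.7% in DTEC (49.7%), 37.4% in DTEC against DTC (51.9%) and 78.8% in KO (64.1%). For NFE2L2, 1 of 12 deposited values was whole, for NQO1 4 and for GCLM 7, so reads of these genes may have been divided among features.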
